A study of Bostrychia moritziana with 3 samples.

Results

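Among the assembled transcripts of the red alga Bostrychia moritziana, 109 of the 36534 listed in at least 1 library were abundant in both gametophytes and reduced, but still present, in the tetrasporophyte. A transcript was included when it reached 10 RPKM in each sex, when these values were less than 4-fold apart, when each was at least 4 times the tetrasporophyte value, and when the tetrasporophyte value was above 0.3 RPKM. The members were thus chosen by the RPKM values of all 3 libraries, and the differences that define it are given below as a description, without a test. RPKM is the number of reads per kilobase of a transcript for each 1000000 reads that mapped. It is a level per transcript length, so levels can be set side by side between transcripts. Ratios between libraries also depend on the scaling, as the summed RPKM differs between them.

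Red algae of this type alternate between free-living generations that look alike. Haploid male gametophytes bear spermatangia, which release non-motile male gametes, and haploid female gametophytes bear carpogonial branches, which hold the egg cell. After fertilization the carposporophyte develops on the female and sheds diploid carpospores, which grow into the diploid tetrasporophyte, and meiosis in its sporangia returns the cycle to the gametophytes.

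The 3 libraries came from unialgal cultures of strain 2746. One was made from male gametophytes that were forming clusters of spermatangia, one from female gametophytes that were forming carpogonial branches, and one from tetrasporophytes that had grown from released carpospores and carried mature sporangia. No genetic change or drug treatment is named in the labels, and whether several thalli were pooled is not given in the sources used here. With 1 library per life stage there was no spread between replicates, so no p-value was computed and every difference is one between these libraries. Stage and library cannot be told apart, nor can fewer cells of a type and less RNA per cell, since whole thalli were used. Transcripts carry an assembly number only, and no names or sequences are paired with those numbers in the files. No function is given for any transcript, no sequence is shown, and the stage labels could not be checked against marker genes.

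Values were listed for 30448 transcripts in each gametophyte and for 34695 in the tetrasporophyte, with 28609 common to all 3 listings. Summed RPKM came to 502958 for the male, 455672 for the female and 486668 for the tetrasporophyte. No counting interval is given, because the number of reads is unknown. Low values moved in steps, and if the most common step is that of equal reads, the male library held 0.895 times the reads of the female and 1.03 times those of the tetrasporophyte.

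The 109 transcripts spanned more than 2 orders of magnitude in each library. In the male they stood between 10.3 and 2170 RPKM with a median of 49.3, and in the female between 10.3 and 1540 RPKM with a median of 47.7. In the tetrasporophyte they stood between 0.38 and 168 RPKM with a median of 4.08. The middle 50% of the set lay between 21.3 and 114 RPKM in the male, between 20.0 and 152 RPKM in the female, and between 1.78 and 12.2 RPKM in the tetrasporophyte. The set was spread over a similar range in both gametophytes and lay lower in the tetrasporophyte, both of which follow from the conditions of the selection.

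**Figure D1:**
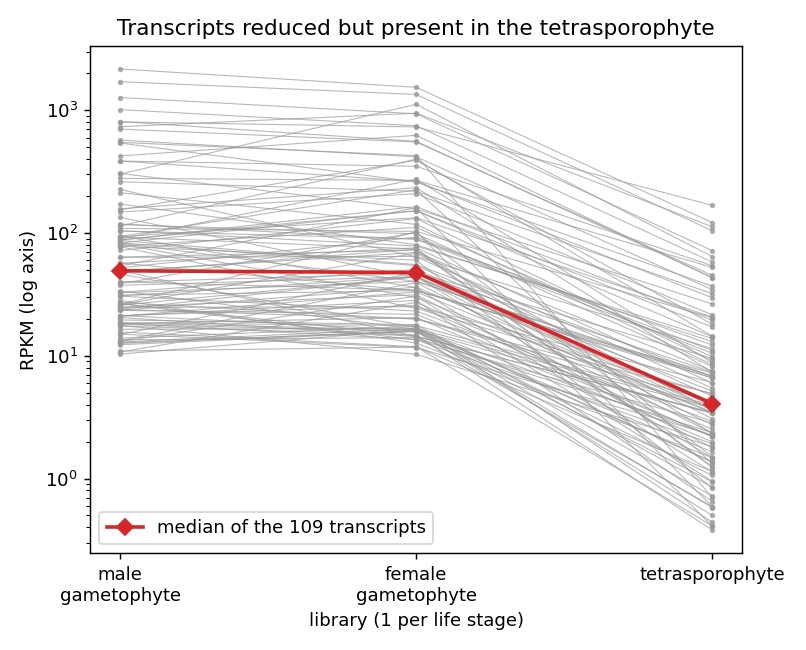
RPKM (log axis) of each of the 109 transcripts in the 3 libraries, joined by grey lines, with the median of the set in red. The median is 49.3 for the male, 47.7 for the female and 4.08 for the tetrasporophyte, and every line drops on its way to the tetrasporophyte because the selection requires it.

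Together these transcripts held 3.61% of the summed RPKM of the male and 3.81% of that of the female, against 0.325% of that of the tetrasporophyte. They included 14 of the 100 most abundant transcripts of the male, 13 of the 100 most abundant of the female and 0 of the 100 most abundant of the tetrasporophyte. Ranks within the first 1000 were held by 43, 40 and 4 of them, respectively. The median rank of the set was 1919 for the male, 1942 for the female and 13310 for the tetrasporophyte. At least 100 RPKM in both gametophytes was reached by 24 of the 109. The conditions on the ratios lower the set in the tetrasporophyte, so these shares and ranks are a description. All 7402 transcripts at 10 RPKM or more in both gametophytes, and less than 4-fold apart there, held larger shares of summed RPKM. These were 63.9% for the male, 78.3% for the female and 74.0% for the tetrasporophyte.

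Presence in the tetrasporophyte was not limited to values near the minimum. Of the 109 transcripts, 15 stood between 0.3 and 1 RPKM there, 27 between 1 and 3, 36 between 3 and 10, and 31 at 10 RPKM or more. Those 31 would meet in the tetrasporophyte the same floor that was asked of the gametophytes. The lowest included transcript, at 0.38 RPKM in the tetrasporophyte, had a male level of 17.5 RPKM and a female level of 14.8 RPKM. The nearest one below the minimum, at 0.28 RPKM in the tetrasporophyte, had 12.2 and 10.3 RPKM.

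The set is 1 side of a wider group. Of the 7402 transcripts at 10 RPKM or more in both gametophytes and less than 4-fold apart between them, 198 (2.67%) were at least 4-fold lower in the tetrasporophyte than in either gametophyte. The 109 made up 55.1% of these, and 1.47% of the 7402. The other 89 stood at 0.3 RPKM or less in the tetrasporophyte, and 34 of them were listed at 0 there. In the opposite direction, the tetrasporophyte stood at least 4-fold above both gametophytes for 63 of the 7402 transcripts. Over all transcripts listed for a gametophyte and the tetrasporophyte that reached 1 RPKM in either, whatever their level in the third, the male was at least 4-fold above the tetrasporophyte for 18.1% of 20150 and the female for 6.16% of 17592. As the selection uses these contrasts, nothing is read from the difference between these shares and the set.

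The size of the reduction varied widely within the set. The median log2 ratio of male to tetrasporophyte RPKM was 3.28 and that of female to tetrasporophyte was 3.43. Over the 7402 transcripts chosen for the gametophytes alone, the matching medians were -0.01 and 0.05. Taking the lower of the 2 gametophyte values, the tetrasporophyte was lower by a median of 7.96-fold. It was between 4- and 8-fold lower for 55 transcripts, between 8- and 16-fold for 33, between 16- and 32-fold for 12, and between 32- and 64-fold for 5, and over 64-fold lower for the remaining 4. Just inside the limit, a transcript with 4.92 RPKM in the tetrasporophyte against a male level of 23.9 and a female level of 20.0 was 4.07-fold apart. Just outside it, one with 27.3 against 155 and 107 RPKM was 3.92-fold apart.

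**Figure D2:**
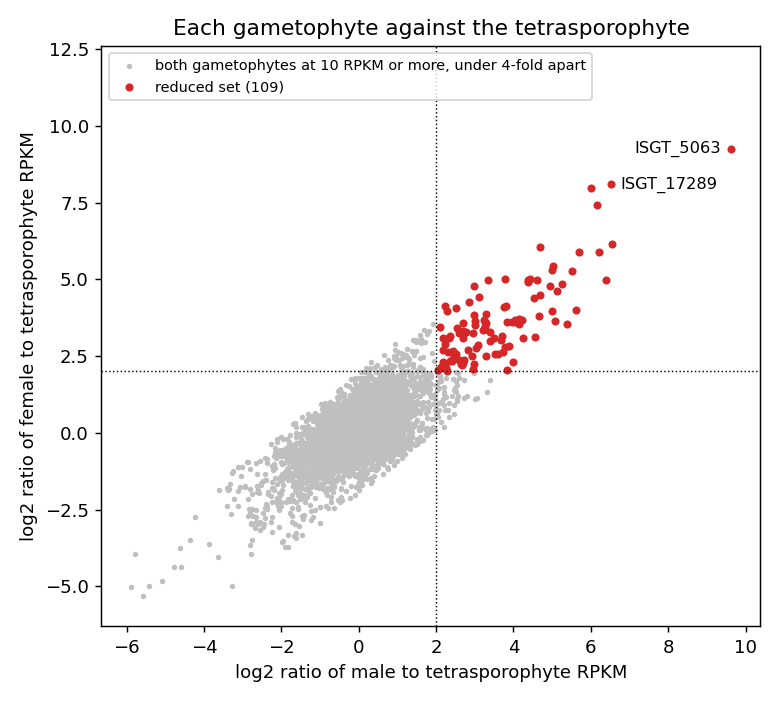
Log2 ratio of male to tetrasporophyte (x axis) and of female to tetrasporophyte RPKM (y axis) for 7313 transcripts at 10 RPKM or more in both gametophytes and less than 4-fold apart, with the 109 reduced transcripts in red and dotted lines at 4-fold. The other 89, at 0.3 RPKM or less in the tetrasporophyte, are not drawn. The grey cloud is centred near 0 on both axes, and ISGT_5063 lies far beyond the other red points, at 9.61 and 9.26.

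ISGT_5063 had the largest reduction. Its level of 0.70 RPKM in the tetrasporophyte compared with a male level of 548 RPKM and a female level of 428 RPKM, 783-fold below the male and 611-fold below the female. It ranked 54th by abundance in the male and 86th in the female, but 18780th in the tetrasporophyte. ISGT_17289 came next, at 0.59 RPKM in the tetrasporophyte against a male level of 54.0 RPKM and a female level of 161 RPKM, which is 91.5-fold below the male and 272-fold below the female. Both are high in the gametophytes and close to the minimum in the tetrasporophyte, where the number of reads behind a value is unknown. ISGT_5063 differs from ISGT_17289 in having nearly equal levels in the sexes.

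The selection left the order of the sexes free within its 4-fold bound. In the deposited values 56 of the 109 transcripts (51.4%) were male-higher and 53 female-higher, with a median log2 ratio of male to female of 0.05. Over the 7402 transcripts chosen for the gametophytes alone, 43.8% were higher in the male. The majority depends on the scaling: with median-of-ratios scaling 40 of the 109 transcripts (36.7%) were higher in the male, against 25.5% of the 7402. With summed RPKM made equal the shares were 44.0% and 34.3%. The balance between the sexes is therefore not settled by these values, and nothing is read from the share of the set beside that of the 7402.

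Large sex differences within the bound were present in both directions. Less than 2-fold apart between the sexes were 84 of the 109 transcripts (77.1%), against 87.4% of the 7402. In the deposited values the male was at least 2-fold higher for 12 (11.0% against 5.23%) and the female for 13 (11.9% against 7.36%). Median-of-ratios scaling shifts each log2 ratio of male to female by -0.28, toward the female. The counts of each direction, and the split that follows, therefore hold for the deposited values only. The 56 transcripts that were male-higher as deposited had a median tetrasporophyte level of 4.91 RPKM. They were 8.52-fold reduced from the lower gametophyte at the median. The 53 female-higher transcripts had a median tetrasporophyte level of 3.69 RPKM and were 7.90-fold reduced.

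ISGT_11543 had the largest male to female ratio of the set, with a male level of 227 RPKM, a female level of 64.0 RPKM and a tetrasporophyte level of 5.45 RPKM. Its male level was 3.54-fold the female level, and its reduction in the tetrasporophyte was 41.6-fold from the male and 11.8-fold from the female. ISGT_8891 had a male level of 49.6 RPKM, a female level of 14.4 RPKM and a tetrasporophyte level of 3.46 RPKM, so that its female level lay only 4.16-fold above the tetrasporophyte. These transcripts form a descending series from male through female to tetrasporophyte.

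The reverse order was seen in ISGT_16993, with a female level of 102 RPKM, a male level of 26.2 RPKM and a tetrasporophyte level of 0.41 RPKM. Its female level was 3.89-fold the male level, the value closest to the bound, and the next transcript beyond the bound was 4.11-fold apart. ISGT_3994 had a female level of 1119 RPKM, a male level of 302 RPKM and a tetrasporophyte level of 64.3 RPKM. It ranked 16th in the female and 1276th in the tetrasporophyte, and thus remained well expressed in the stage where it was lowest.

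The share of transcripts that belonged to the reduced set was highest among those most abundant in the gametophytes. With the gametophyte level taken as the geometric mean of male and female RPKM, 26 of 2565 transcripts (1.01%) between 10 and 20 RPKM belonged to the set, and 29 of 3356 (0.864%) between 20 and 50. The share was 2.09% of 955 transcripts between 50 and 100 RPKM, 4.39% of 433 between 100 and 300, and 16.1% (15 of 93) at 300 RPKM or more. The minimum of 0.3 RPKM removes more transcripts at low levels. With the transcripts at or below that minimum counted as well, the shares were 2.96%, 1.73%, 2.83%, 4.85% and 17.2% in the same order, and the highest class still stood apart from the rest. The level uses the same gametophyte values as the selection, so these shares are a description. Of the 15 in the highest class, 7 are of the group with like proportions described below, which may be fewer genes. Among the 109, level and size of the reduction had a Spearman correlation of 0.10 across transcripts, which share 3 libraries and are not replicates.

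A higher share at high levels also appeared when another library was the low one. By the same conditions 89 transcripts were reduced but present in the male, and 189 in the female, of 7434 and 7824 transcripts high in the other 2 libraries. At 300 RPKM or more these were 12.5% of 96 transcripts for the male and 6.41% of 78 for the female. Between 10 and 20 RPKM they were 0.521% and 1.58%. The median reduction was 10.5-fold in the set low in the male and 5.69-fold in the set low in the female, against 7.96-fold in the set low in the tetrasporophyte. Each pair of these sets shares libraries, so the sets are given side by side and were not tested against each other.

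**Figure D3:**
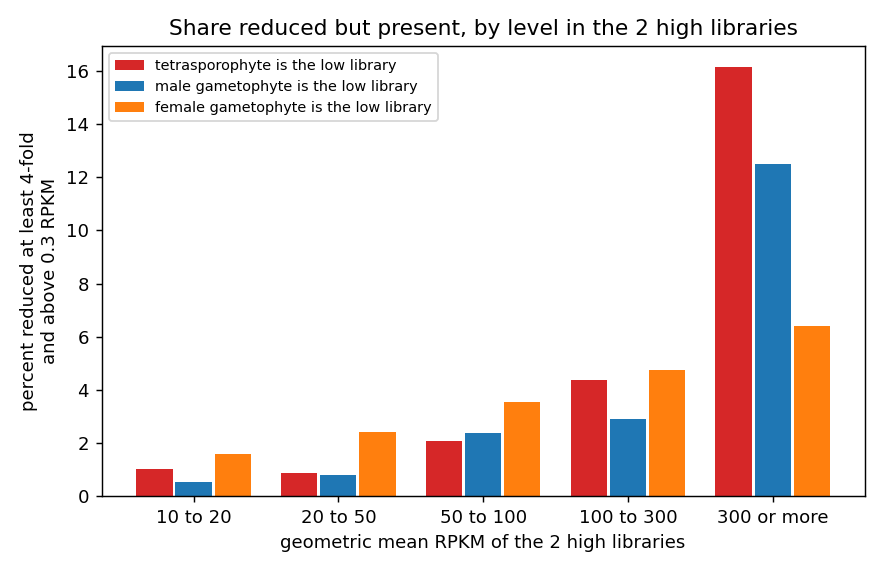
Percent of transcripts reduced at least 4-fold but above 0.3 RPKM in the low library, by the geometric mean RPKM of the 2 high libraries, with the tetrasporophyte (red), the male (blue) or the female (orange) as the low library. The bars of the highest class stand at 16.1, 12.5 and 6.41%, above those of the lower classes for each low library.

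Several abundant members, among them the 4 with the highest gametophyte level, shared nearly the same proportions between the 3 libraries. ISGT_4129, the member with the highest gametophyte level, had a male level of 2170 RPKM, a female level of 1540 RPKM and a tetrasporophyte level of 122 RPKM, and ranked 7th in both gametophytes. ISGT_4515 had 1710, 1347 and 104 RPKM in the same libraries, and ISGT_6645 had 1271, 936 and 71.8 RPKM. All 3 had close to the same order and spacing of levels, at different heights.

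Within 0.2 of ISGT_4129 in both log2 ratios lay 7 further members, a grouping that was chosen after the values were seen. Besides ISGT_4515 and ISGT_6645 they were ISGT_41955, ISGT_4426, ISGT_41951, ISGT_42294 and ISGT_4948. Across the 8 transcripts the log2 ratio of male to tetrasporophyte ran from 3.96 to 4.22 and that of female to tetrasporophyte from 3.53 to 3.71, while male levels ran from 83.2 to 2170 RPKM. The reduction from the lower gametophyte was between 11.6- and 13.0-fold in all 8. Of the 15 members at 300 RPKM or more, 7 belonged to this group, and the other 8 did not, being between 4.35- and 611-fold reduced with log2 ratios of male to female from -1.89 to 1.05. The 8 transcripts made up 45.8% of the summed male RPKM of the 109 and 35.5% of the summed female RPKM.

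Few other transcripts had these proportions. The other 101 members had a median of 1 further member within the same distance, with up to 8. Of the 20955 transcripts above 0 in all 3 libraries, 12 in all lay within this distance of ISGT_4129: the 8 described, and 4 that stood no higher than 3.09 RPKM in any library. Whether the 8 numbers are separate genes, or pieces or near-copies of fewer genes that share reads, cannot be told apart from levels alone.

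**Figure D4:**
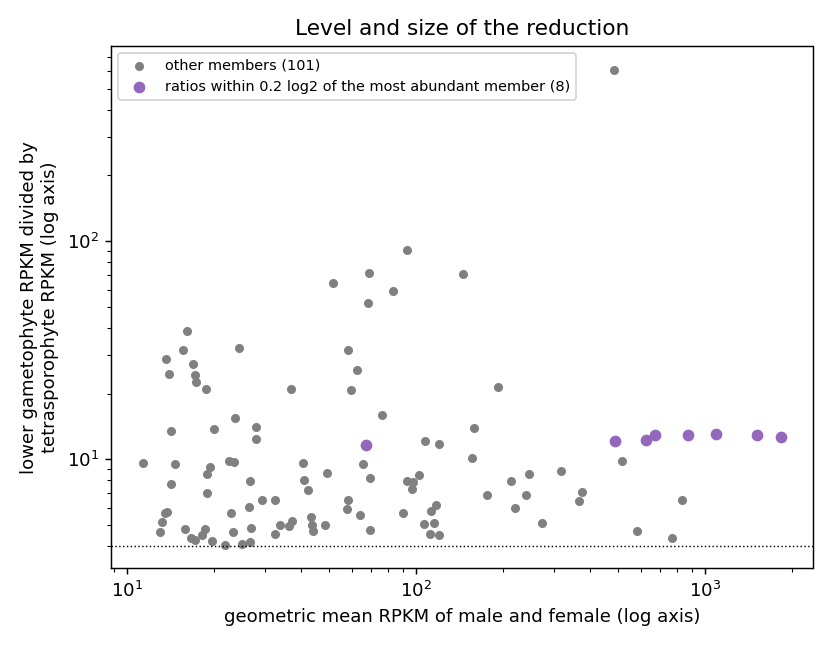
Gametophyte level (geometric mean of male and female RPKM, log x axis) against the lower gametophyte RPKM divided by the tetrasporophyte RPKM (log y axis) for the 109 transcripts, with the 8 of like proportions in purple and a dotted line at 4-fold. The purple points form a flat row between 11.6- and 13.0-fold, while the others spread from 4.07- to 611-fold.

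Transcript numbers were not used to choose the set, and its members were unevenly placed along them. The blocks of 4000 numbers with the highest shares were those from 12001 and 16001, and they were joined here because of those shares. Numbers 12001 to 20000 held 25 of the 109 but only 219 of the 7402 transcripts high in both gametophytes, a share of 11.4%. Elsewhere the share was 1.17% (84 of 7183). The difference was also present at like level: between 10 and 20 RPKM it was 9.23% of 130 transcripts against 0.575% of 2435, and between 20 and 50 RPKM 7.89% of 76 against 0.701% of 3280. The median over all transcripts high in both gametophytes was also shifted in this range. It was taken on the log2 ratio of gametophyte level to tetrasporophyte value, with values below 0.3 RPKM raised to it. This median was 0.62 in the block from 12001 and 1.43 in that from 16001. In the other blocks that held such transcripts it was -0.03 to 0.15. The medians include the reduced transcripts, so they do not show whether the rest were shifted. The same range of numbers held 46 of the 89 transcripts at 0.3 RPKM or less in the tetrasporophyte.

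Reduction in the other libraries also varied along the numbers. Between 12001 and 16000, 12.7% of the transcripts high in both gametophytes (16 of 126) were in the reduced set. By the same conditions, of those high in the other libraries, 3.09% (3 of 97) were reduced in the male and 7.63% (9 of 118) in the female. Between 16001 and 20000 the shares were 9.68% (9 of 93) for the tetrasporophyte, 3.51% (2 of 57) for the male and 8.77% (5 of 57) for the female. Between 1 and 4000 they were 0.433% (13 of 2999), 0.758% (23 of 3034) and 1.18% (38 of 3207). From 40001 onward they were 1.30% (15 of 1156) for the tetrasporophyte, 2.14% (26 of 1216) for the male and 5.69% (71 of 1248) for the female. Here, between 1 and 4000 and between 36001 and 40000 the tetrasporophyte share was the lowest. It was the highest in the blocks from 8001, 12001 and 16001, though by little in the last. Between 8001 and 12000 the shares were 2.69% for the tetrasporophyte, 0.656% for the male and 2.06% for the female. Between 4001 and 8000 they were 2.13%, 1.75% and 2.68%, with the female highest. No transcript numbered 20001 to 36000 reached 10 RPKM in both gametophytes, although 12212 were listed and 105 of them reached it in the male, so none could enter the set. How the numbers were assigned is not given in the sources used here.

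**Figure D5:**
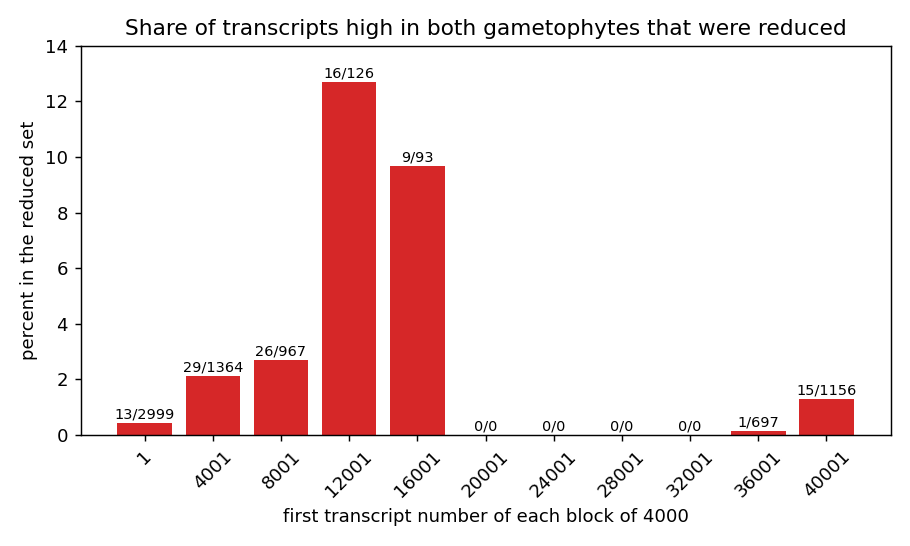
Percent of the transcripts at 10 RPKM or more in both gametophytes and less than 4-fold apart that belonged to the reduced set, by block of 4000 transcript numbers, with members over transcripts considered above each bar. The blocks from 12001 and 16001 stand at 12.7 and 9.68%, and the blocks from 20001 to 36000 hold no transcript that could enter.

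The levels of the members differed along the numbers. The 15 members numbered from 40001 onward had a median gametophyte level of 274 RPKM and a median tetrasporophyte level of 29.7 RPKM, and 12 of them were higher in the male. The 9 members between 16001 and 20000 had medians of 26.8 and 1.82 RPKM, and 2 of them were higher in the male. All transcripts high in both gametophytes had median gametophyte levels of 27.5 RPKM from 40001 onward and 18.1 RPKM between 16001 and 20000. Their male-higher share by block was not computed, and the order of the sexes depends on the scaling. Nothing is therefore read from the 12 and the 2. The 15 include ISGT_41951, ISGT_41955 and ISGT_42294 of the group with like proportions. All members between 1 and 4000 were at most 12.1-fold reduced.

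Transcripts next in number to a member were also looked at. Of the 109, 2 (1.83%) had another member next to them, ISGT_5063 and ISGT_5064, the second of which was named after its values were seen. ISGT_5064 had a male level of 18.4 RPKM, a female level of 20.5 RPKM and a tetrasporophyte level of 1.99 RPKM, far below its neighbour in the gametophytes. The 190 other neighbours listed in all 3 libraries had median levels of 8.67 (male), 6.97 (female) and 10.1 RPKM (tetrasporophyte). Of the 62 neighbours that met the gametophyte conditions, 1 was at least 4-fold lower in the tetrasporophyte. Members were left out of these neighbours, so this 1 stood at 0.3 RPKM or less in the tetrasporophyte. Over all 7402 transcripts that met the gametophyte conditions, 2.67% were at least 4-fold lower. These were the 109 members (1.47% of the 7402) and 89 at 0.3 RPKM or less. The bases thus differ, and nothing is read from these counts about the neighbours.

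Within the set, levels in the libraries followed each other. Across the 109 transcripts the Spearman correlation was 0.86 between male and female, 0.75 between male and tetrasporophyte and 0.73 between female and tetrasporophyte. Over the 7402 transcripts it was 0.77, 0.69 and 0.69 in the same order. The conditions on the ratios raise these values by themselves, so they are given as a description of how far the order of levels was kept in the tetrasporophyte.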

How the data were processed

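Per the labels' protocols, TRI Reagent served for RNA extraction and a standard Illumina procedure for library preparation, with 1 library for each of 3 life stages. The deposited values are RPKM per assembled transcript, as the file headers state, and carry 2 decimals. The sources used here do not name the assembler, the aligner or the counter, and give neither read totals nor transcript lengths. The 3 listings were joined on the transcript number. Ratios are of deposited RPKM without a pseudocount or further scaling, which is possible because every member is above 0 in all libraries. A transcript missing from a listing could not enter the set. The background shares in the report count a value of 0 as 4-fold lower. No test was made and no p-value computed, since there is 1 library per stage.

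The named transcripts are the 2 with the largest fold to the lower gametophyte and the 2 with the largest ratio between the sexes in each direction; others are said to be chosen after their values were seen. The members, lists and conditions were chosen with earlier results of these data known. Relative depth was read from ratios of transcripts between 0.3 and 3 RPKM, as the log2 ratio with the largest excess within 0.01. Alternatives changed the scaling (applied to ratios only), the gametophyte floor, the fold, the bound between the sexes, the tetrasporophyte minimum and the pseudocount. The code of the selection was run on simulated data with 200 transcripts lowered 8-fold or 2-fold, on either side of the 4-fold limit. With little noise added, the outcome followed from those folds, so this checks the code and not the set. The software was Python 3.11.15 with pandas 2.3.3, numpy 2.4.6, scipy 1.17.1 and matplotlib 3.10.9.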

Additional observations from a re-analysis of the deposited data

How the results depend on the processing

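No paired analysis was possible because each life stage has 1 library. Of 70 values recomputed under 14 alternatives, 54 stayed near the reported value and 16 moved. Near meant counts within 1.5 times, and medians and percents within a 95% binomial interval over the members. The members share 3 libraries and are not replicates, so that interval is a yardstick and measures no spread. Counts could not reverse, nor could the log2 ratios, which the selection holds above 0. The percent higher in the male ran from 39.1 to 55.6% over the alternatives, so its majority was not always kept. A floor of 1 RPKM and no floor gave the same values, which are counted for each. The number of transcripts was 328 at 2-fold, 54 at 8-fold, 187 with a gametophyte floor of 1 RPKM or none, and 164 with any tetrasporophyte value above 0, by construction of these conditions. The median log2 ratio of male to tetrasporophyte was 1.80 at 2-fold, 4.31 at 8-fold and 4.31 above 0 RPKM. That of female to tetrasporophyte was 1.94, 3.97 and 4.13 under the same settings, and 3.09 with a floor of 1 RPKM or none. Median-of-ratios scaling shifted the log2 ratio of female to tetrasporophyte by 0.21, gave 110 transcripts of which 105 were among the 109, and made 39.1% of the 110 higher in the male in place of 51.4%. The percent with a member next in number was 0 with a floor of 20 RPKM or a minimum of 1 RPKM. The read depth behind tetrasporophyte values below 1 RPKM is unknown, which limits the largest folds.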
